A study of Mus musculus with 4 samples.

Results

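The 30 genes described here make cholesterol and fatty acids or regulate that synthesis. They were taken by gene symbol from a list that was chosen with earlier results of these data known. The list holds 17 genes of sterol synthesis, 9 of fatty acid synthesis and 4 regulators, of 12740 genes named in the study. All 30 had an assembled transcript in at least 1 library, and 29 had one in all 4.

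The study followed C2C12, a mouse skeletal muscle cell line whose dividing myoblasts fuse into myotubes when serum is withdrawn; the labels give its strain as C57BL/6. The labels name no altered gene and no added compound, and the groups differ in medium, confluence and time. The first group, called growth here (labelled -24 hours), was harvested in exponential growth in high serum, and the other 3 were harvested 60, 120 and 168 h after confluent plates were moved to low serum. Each time point has 1 library of polyadenylated RNA, so there is no replicate and no p-value, and a difference here compares libraries. Values are FPKM, that is, fragments corrected for transcript length and library size. The ± is the distance to the deposited confidence limit, combined over transcripts where a gene has several. For a log2 difference the ± is an error computed from the limits of both libraries. It covers counting error and not the variation between cultures.

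Cells build cholesterol from acetyl-CoA through mevalonate, farnesyl diphosphate, squalene and lanosterol, and build fatty acids from acetyl-CoA through malonyl-CoA and then lengthen and desaturate them. Most genes of both arms are known targets of the sterol regulatory element binding proteins, which are membrane-bound precursors made from Srebf1 and Srebf2. When sterols are low, Scap escorts the precursors to the Golgi, where they are cut and freed to enter the nucleus; when sterols are high, Insig1 holds Scap back. Growing muscle cells need these lipids for new membrane, and in culture serum also supplies sterols and fatty acids.

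Of 16 sterol synthesis genes assembled in all 4 libraries, 9 were highest at 60 h and lowest at 168 h by the summed level. Of all genes so assembled, 4.62% had that order. By both measures used here, 6 of the 16 had it. From 60 h to 168 h, 9 of the 17 sterol genes fell, beside 6.72% of all genes, and none rose, beside 8.66%. Among the 9, Msmo1, Cyp51, Nsdhl, Lss, Pmvk and Sqle fell by 2.32-fold to 3.79-fold. This comparison and this order were chosen after the values were seen. Mvd and Dhcr7 did not share this pattern: Dhcr7 was 3.55-fold higher at 60 h than in growth and held 81.4 ± 1.7 FPKM at 168 h. The desaturase genes Scd1 and Scd2 were 6.01-fold and 6.06-fold higher at 60 h than in growth. Srebf1 rose 2.37-fold by 60 h and kept that level to 168 h, while the first exon that most of its transcripts carried changed between those times.

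The words rose and fell are kept for genes that met a size rule: a difference of at least 1 in log2(FPKM + 1), which is 2-fold, a level of 1 FPKM or more in the higher library, and separate confidence intervals. The value is the sum over a gene's transcripts. Beside it stands a value through the introns, found by adding up, for each intron, the transcripts that cross it and taking the median intron, since several genes were assembled in pieces whose FPKM values add up to more than the gene's level. In these bulk libraries, fewer cells of a type and less RNA per cell cannot be told apart.

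The libraries held 24488681 to 48228887 fragments, and the median gene's limit lay 10% to 14.3% of its value away, farthest at 120 h. All 6 muscle differentiation markers rose from growth to 60 h, with a summed level of 42.4 FPKM in growth and 8399 to 12040 afterwards. Of 6 growth markers, 5 fell, and their sum went from 682 FPKM in growth to 147, 95.1 and 48.4 at 60, 120 and 168 h. Of 8 adipocyte markers, Adipoq, Plin1, Cidec, Cebpa and Retn were not assembled in any library, and Fabp4 reached 0.75 FPKM at most. The list's sum of 6.01 to 44.9 FPKM came from Pparg, highest in growth at 20.7 ± 3.7, and Lpl, highest at 168 h at 42.5 ± 1.3. Of 5 macrophage markers, Ptprc, Adgre1 and Lyz2 were not assembled, and the sum was 1.14 FPKM in growth and 4.72 to 4.83 afterwards.

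At 60 h against growth, 4 of the 17 sterol genes rose, where 11.1% of all genes did, and none fell, where 15.5% of all genes did. The 4 were Dhcr7, Fdft1, Fdps and Sc5d, and 3 of them, without Fdps, also rose through the introns (8.29% of all genes rose by both values). The median sterol gene differed by 0.42 on the log2 scale, beside -0.19 over all genes. At 120 h against 60 h, 3 sterol genes fell (Msmo1, Fdft1 and Sc5d), beside 3.83% of all genes, and none rose, beside 12.4%. At 168 h against 120 h, 5 fell (Fdps, Sqle, Lss, Nsdhl and Hsd17b7), beside 10.1% of all genes, and 2 rose (Fdft1 and Sc5d), beside 4.1%. At 168 h against growth, 6 fell (Acat2, Sqle, Cyp51, Msmo1, Nsdhl and Hsd17b7), all 6 by both values, beside 18.6% of all genes by the sum and 14.5% by both. After median-ratio rescaling of the libraries this comparison gave 3 sterol genes that fell and 4 that rose, beside 15% and 18.2% of all genes. Without the rescaling, 3 rose at 168 h against growth (Dhcr7, Fdft1 and Sc5d), beside 15.6% of all genes.

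Counted through the introns, 3 sterol genes rose and none fell at 60 h against growth, beside 11.1% and 11.3% of all genes. At 120 h against 60 h, Fdps rose, beside 4.19% of all genes, and Msmo1 and Sc5d fell, beside 4.44%. Sc5d rose at 168 h against 120 h, beside 4.29%, and Hmgcs1, Fdps, Sqle, Lss and Nsdhl fell, beside 4.3%. At 168 h against growth, 2 rose (Dhcr7 and Sc5d), beside 15.7%, and 8 fell, beside 18.3%, Hmgcs1 and Fdps being added to the 6 above. By both values together none fell at 60 h against growth, beside 9.33% of all genes. Likewise by both, 2 fell and none rose at 120 h against 60 h, beside 2.3% and 3.01%, and 4 fell and 1 rose at 168 h against 120 h, beside 2.84% and 2.49%.

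The comparison of 168 h with 60 h was added after the values were seen. It gave 9 sterol genes that fell by the sum (Hmgcs1, Mvk, Pmvk, Fdps, Sqle, Lss, Cyp51, Msmo1 and Nsdhl), beside 6.72% of all genes, and none that rose, beside 8.66%. Through the introns 9 also fell, beside 6.74% of all genes, and none rose, beside 5.88%. Of these, 7 fell by both values, beside 4.45% of all genes. The median sterol gene differed by -1.18, beside 0.05 over all genes. Hsd17b7, Ebp and Sc5d lay just outside the 2-fold line, at -0.97, -0.95 and -0.93. Of the 16 sterol genes assembled in all 4 libraries, 9 were highest at 60 h and lowest at 168 h by the sum, beside 4.62% of all genes so assembled, and 7 through the introns, beside 5.87%. That order was also chosen after the values were seen.

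**Figure D1:**
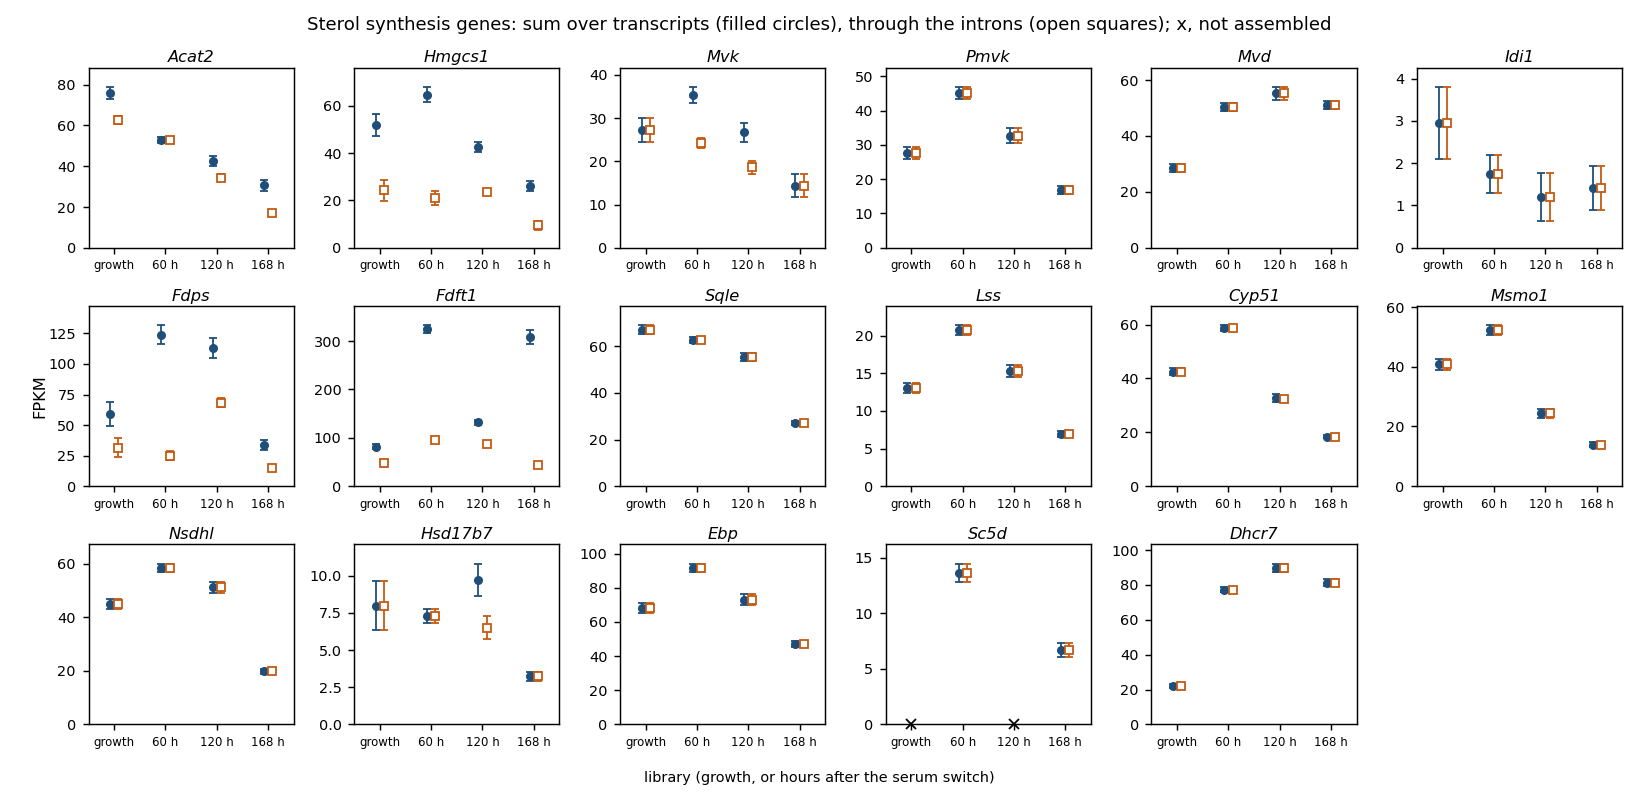
FPKM (linear vertical axes from 0) of the 17 sterol synthesis genes in the 4 libraries (horizontal axes); filled circles are sums over transcripts, open squares values through the introns, bars reach to the confidence limits and a cross marks a library without an assembled transcript of the gene. Pmvk, Lss, Cyp51, Msmo1, Nsdhl and Ebp stand highest at 60 h and lowest at 168 h by both values, while Mvd and Dhcr7 stay near their 60 h level.

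The first steps join acetyl-CoA units and make mevalonate. Acat2, which condenses acetyl-CoA to acetoacetyl-CoA, had 75.9 ± 2.9 FPKM in growth, 52.8 ± 1.4 at 60 h, 42.5 ± 2.3 at 120 h and 30.6 ± 2.8 at 168 h. Its value was lower in each later library, and the difference of -1.28 ± 0.14 from growth to 168 h passed the rule. Of its sampled 50-base words, 48% also occur in Acat3, so its level is uncertain by what that copy received. Hmgcs1, the cytosolic synthase that adds a further acetyl unit, had 51.8 ± 4.8 FPKM in growth, 64.7 ± 3.2 at 60 h, 42.4 ± 2.1 at 120 h and 26.0 ± 2.2 at 168 h. By the sum the 168 h library was the lowest and the 60 h library the highest, and they differed by -1.28 ± 0.14 on the log2 scale. Through the introns Hmgcs1 had 24.3 ± 4.5, 21.2 ± 3.0, 23.5 ± 1.3 and 9.48 ± 2.0 FPKM, with growth, 60 h and 120 h overlapping and 168 h again lowest. The files place Hmgcs1 at separate positions on an unplaced contig of chromosome 13, so its sum adds both placements. Its introns there run from 116399 to 132273 and from 310309 to 326183. Some transcripts join the placements through an intron of 194075 to 194435 bases. The first-intron and intron-chain shares of Hmgcs1 given below include these joined transcripts.

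Mvk, Pmvk and Mvd turn mevalonate into isopentenyl diphosphate, the building block of all later steps. Mvk, which adds the first phosphate, had 27.2 ± 2.8, 35.3 ± 1.8, 26.7 ± 2.1 and 14.4 ± 2.7 FPKM in growth and at 60, 120 and 168 h. Its fall from 60 h to 168 h held for the sum only; through the introns the difference was -0.71. Pmvk, which adds the next phosphate, had 27.6 ± 1.8, 45.0 ± 1.8, 32.6 ± 2.2 and 17.0 ± 1.2 FPKM in the same order. All 4 intervals of Pmvk stood apart, and its difference from 60 h to 168 h was -1.36 ± 0.11. Mvd, which decarboxylates the product, had 28.6 ± 1.5, 50.4 ± 1.5, 55.2 ± 2.3 and 51.1 ± 1.6 FPKM. The growth library lay below the other 3 by less than 2-fold, and 168 h differed from 60 h by 0.02 ± 0.06, so the intervals of these 2 overlapped. Pmvk and Mvd were thus next to each other in the pathway and apart in their 168 h values.

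Idi1 isomerises isopentenyl diphosphate, Fdps joins the units to farnesyl diphosphate, and Fdft1 joins a pair of farnesyl units to squalene. Idi1 was assembled only as a 5′ piece with 1 of the gene's 5 introns, at 2.95 ± 0.85, 1.75 ± 0.46, 1.20 ± 0.58 and 1.41 ± 0.52 FPKM, and 36.7% of its words occur in other genes, so these values do not give its level. Fdps had 59.0 ± 10, 124 ± 7.6, 113 ± 8.2 and 33.7 ± 4.5 FPKM by the sum, and 31.4, 25.0, 68.5 and 14.6 through the introns. Both values were lowest at 168 h, but the sum put the highest level at 60 h and the introns at 120 h. The union of exons gave 14.8 ± 2.4, 31.0 ± 1.7, 29.7 ± 1.6 and 9.79 ± 1.3 FPKM, in the same order as the sum. No Fdps transcript held more than 6 of the gene's 10 introns, and 51.9% of its words occur in other genes.

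Fdft1 shows how the pieces matter. The sum gave 81.7 ± 4.5, 324 ± 7.9, 132 ± 5.1 and 308.5 ± 14.3 FPKM, and the introns gave 46.9 ± 2.1, 95 ± 4.2, 86.8 ± 3.2 and 44.6 ± 3.4. Its transcripts numbered 2, 4, 2 and 5, and the libraries with more pieces were those with the higher sums. Through the introns, Fdft1 rose from growth to 60 h by 1.003 and fell from 60 h to 168 h by 1.07 on the log2 scale. Its sum differed by -0.07 between 60 h and 168 h. The value through the introns rested on 6, 4, 6 and 2 introns of Fdft1 in the same order of libraries, so it is not like for like. At 168 h it lies midway between introns at 61.8 and 27.3 FPKM. The annotation has Ctsb overlapping Fdft1 on the other strand, and fragments of overlapping genes cannot be told apart here. Of Fdft1's words, 14.7% occur in a further gene.

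Sqle, the epoxidase that commits squalene to sterols, had 67.2 ± 1.8, 62.6 ± 1.2, 55.5 ± 1.7 and 27.0 ± 0.84 FPKM in growth and at 60, 120 and 168 h. It was assembled with all 10 introns in 1 transcript in each library, so the sum and the introns gave the same value. Its level at 60 h was 1.07-fold below growth, at 120 h 1.13-fold below 60 h and at 168 h 2.05-fold below 120 h. Lss, which closes the ring system to lanosterol, had 13.1 ± 0.63, 20.8 ± 0.61, 15.3 ± 0.74 and 6.95 ± 0.37 FPKM. All 21 of its introns were in 1 transcript in each library, and its 168 h level was 2.99-fold below that at 60 h.

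Cyp51, Msmo1, Nsdhl and Hsd17b7 remove the methyl groups of lanosterol. Cyp51, the demethylase that starts this, had 42.6 ± 1.3, 58.6 ± 1.1, 32.9 ± 1.4 and 18.4 ± 0.70 FPKM. All 4 intervals stood apart, and 168 h was 3.18-fold below 60 h; the annotation has Akap9 overlapping it on the other strand. Msmo1, the methyl sterol oxidase, had 40.8 ± 1.8, 52.3 ± 1.5, 24.3 ± 1.5 and 13.8 ± 0.83 FPKM. It fell from 60 h to 120 h by 1.07 and was 3.79-fold lower at 168 h than at 60 h. By the sum, Fdps was 3.68-fold lower at 168 h than at 60 h. Nsdhl, the decarboxylating dehydrogenase, had 45.0 ± 1.9, 58.6 ± 1.5, 51.2 ± 2.2 and 19.9 ± 0.97 FPKM. Its decline came between 120 h and 168 h, at -1.32 ± 0.09 on the log2 scale. Hsd17b7, the keto reductase of this step, had the low values of 7.99 ± 1.6, 7.28 ± 0.47, 9.72 ± 1.1 and 3.23 ± 0.33 FPKM, and its 168 h library stood below the other 3 with intervals apart.

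Ebp, Sc5d and Dhcr7 shift and reduce double bonds to finish cholesterol. Ebp, the isomerase, had 68.1 ± 2.9, 91.5 ± 2.5, 73.1 ± 3.2 and 47.0 ± 1.9 FPKM, with 60 h highest, 168 h lowest and no difference of 2-fold. Sc5d, the desaturase, had 13.6 ± 0.83 FPKM at 60 h and 6.71 ± 0.62 at 168 h. No transcript of it was assembled in the other 2 libraries, so its calls against those libraries rest on assembly and no fold is given. A single-exon piece of 275 to 288 bases in its last exon was present in all 4 libraries, at 5.72 ± 1.7, 5.33 ± 1.2, 5.49 ± 1.8 and 3.31 ± 1.0 FPKM. The intervals of that piece overlapped between all 4 libraries. A longer piece of the same exon had 1.64 ± 0.31 FPKM over 2446 bases in growth and 2.36 ± 0.28 over 2492 bases at 60 h, with intervals apart. The exon was broken further at 120 h, into pieces of 1451 and 553 bases with 1.97 ± 0.47 and 1.48 ± 0.66 FPKM, and at 168 h, into pieces of 1506 and 915 bases with 1.48 ± 0.30 and 1.20 ± 0.35. Dhcr7, the reductase that makes cholesterol itself, had 21.8 ± 1.1, 77.4 ± 1.6, 89.7 ± 2.5 and 81.4 ± 1.7 FPKM. Growth was far below the other 3 libraries, and 168 h differed from 60 h by 0.07 ± 0.04.

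Promoters were read from the RefSeq promoter table of mouse build GRCm38.p6, which spans 250 bases before to 50 bases after each transcript start and has entries for 24 of the 30 genes; Fdps, Fdft1, Sqle, Scd1, Scd2 and Fads1 have none. Shown are Hmgcs1, Msmo1, which fell with the 60 h to 168 h decline, and Mvd, which did not. Hmgcs1 is the one of the 24 with an exact match to the core sterol regulatory element as searched here. Capitals mark the core element, CCAAT boxes and GC boxes on either strand, and each runs 5′ to 3′ on the gene's strand.
Hmgcs1, chr13:119690101-119690400, plus strand: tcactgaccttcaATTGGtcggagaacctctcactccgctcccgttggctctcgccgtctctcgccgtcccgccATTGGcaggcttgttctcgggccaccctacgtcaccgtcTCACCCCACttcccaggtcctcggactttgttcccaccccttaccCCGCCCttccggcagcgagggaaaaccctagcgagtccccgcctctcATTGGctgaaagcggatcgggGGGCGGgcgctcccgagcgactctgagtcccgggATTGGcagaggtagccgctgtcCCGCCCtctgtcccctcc
Msmo1, chr8:64733529-64733828, minus strand: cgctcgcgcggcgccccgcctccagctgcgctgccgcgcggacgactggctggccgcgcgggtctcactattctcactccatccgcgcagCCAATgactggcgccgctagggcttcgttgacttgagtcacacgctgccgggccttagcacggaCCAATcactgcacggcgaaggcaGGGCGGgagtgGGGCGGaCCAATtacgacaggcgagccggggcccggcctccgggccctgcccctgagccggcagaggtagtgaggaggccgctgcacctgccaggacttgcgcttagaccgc
Mvd, chr8:122443373-122443672, minus strand: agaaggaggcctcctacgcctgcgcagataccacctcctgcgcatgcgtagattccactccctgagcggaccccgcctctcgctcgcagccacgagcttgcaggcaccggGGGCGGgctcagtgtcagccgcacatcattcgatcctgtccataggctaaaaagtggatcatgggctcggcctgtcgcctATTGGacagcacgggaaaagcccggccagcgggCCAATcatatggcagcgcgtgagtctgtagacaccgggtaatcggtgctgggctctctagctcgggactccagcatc

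The core sterol regulatory element was searched as TCACNCCAC on both strands. An exact match occurred in Hmgcs1, from position -137 to -129 counted back from the transcript start, and in 1.24% of the 32851 promoters. Other forms of the element and sites outside these windows were not searched. A promoter without a match may therefore still hold such an element. The CCAAT box, where the factor NF-Y is known to bind beside these elements, was searched as CCAAT. It was in 19 of the 24 genes and 20 of their 30 promoters, beside 37.4% of all promoters and 37.5% of those of genes named in the files. It was in 13 of 14 sterol genes, 3 of 6 fatty acid genes and 3 of 4 regulators. Msmo1 and Mvd both hold it, 3 and 2 times, and whether it bears on the decline was not tested. The GC box GGGCGG was in 22 of the 30 promoters, beside 35.7% of all and 61.2% of those of named genes. The E-box CACGTG was in 6 of the 30 promoters, those of Hsd17b7, Sc5d, Dhcr7, Scap and Insig1, beside 7.15% of all promoters and 9.83% of those of named genes. Matches of different motifs did not overlap in these promoters.

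In fatty acid synthesis, at 60 h against growth, 3 of 9 genes rose (Scd1, Scd2 and Acacb), beside 11.1% of all genes, and none fell, beside 15.5%. Scd1 and Scd2 rose by both values. The median gene of the 9 differed by 0.91, beside -0.19 over all genes. At 120 h against 60 h, Acacb rose by the sum alone, beside 12.4% of all genes, and Acaca fell through the introns alone, beside 4.44%. Elovl6 fell by the sum alone at 168 h against 120 h, beside 10.1% of all genes. At 168 h against growth, 4 rose (Scd1, Scd2, Acaca and Acacb), beside 15.6% of all genes, and Elovl6 fell, beside 18.6%; by both values only Scd1 and Scd2 rose, beside 12.5%, and none fell. In the added comparison of 168 h with 60 h, Fads2 fell by both values, beside 6.72% of all genes by the sum and 4.45% by both. Through the introns Elovl6 and Scd2 fell too, beside 6.74% of all genes.

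**Figure D2:**
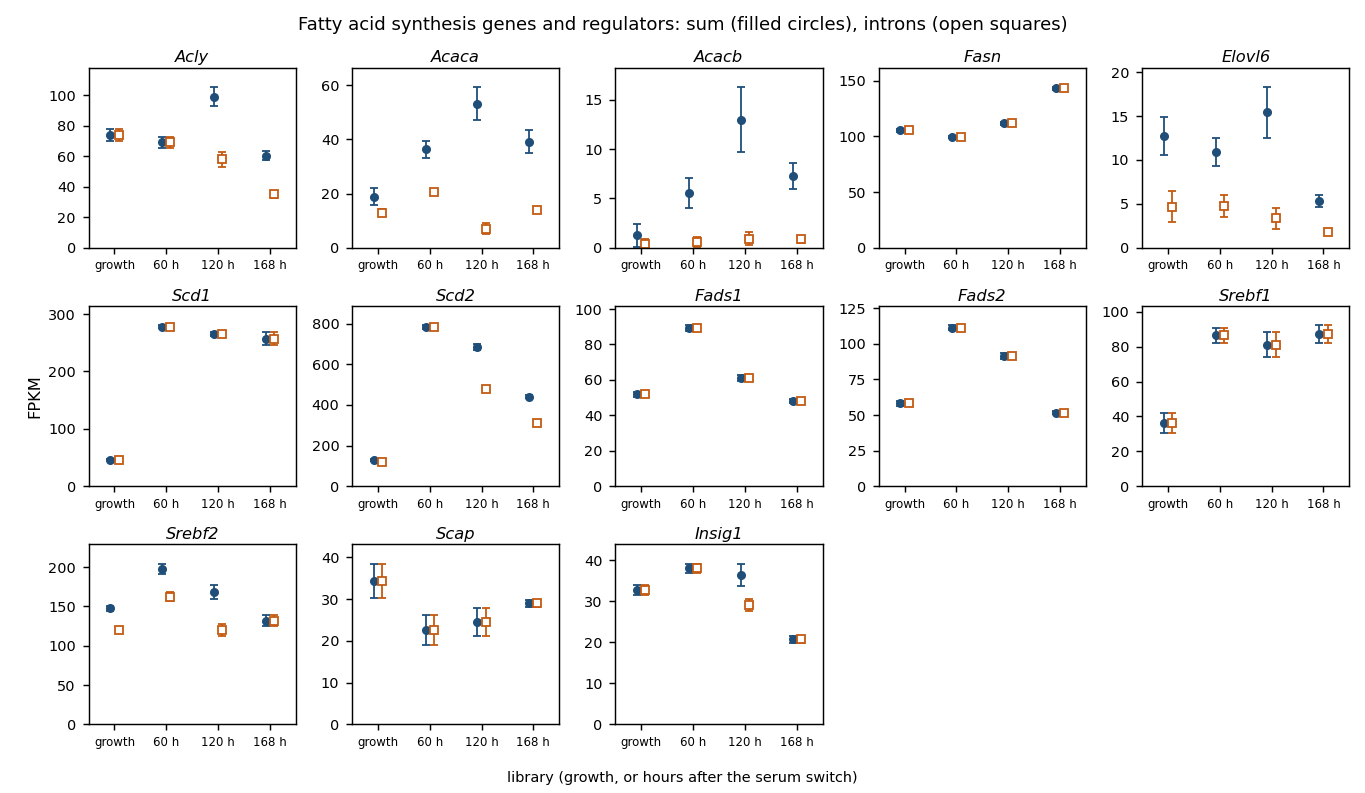
FPKM (linear vertical axes from 0) of the 9 fatty acid synthesis genes and 4 regulators in the 4 libraries (horizontal axes); filled circles are sums over transcripts, open squares values through the introns, and bars reach to the confidence limits. Scd1, Scd2 and Srebf1 stand low in growth and high afterwards, and the circles and squares part for Acaca, Acacb and Elovl6, which were assembled in pieces.

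Acly, which splits citrate to supply cytosolic acetyl-CoA to both arms, had 74.1 ± 3.9, 69.3 ± 3.5, 99.1 ± 6.2 and 60.5 ± 3.2 FPKM by the sum in growth and at 60, 120 and 168 h. Through the introns it had 74.1, 69.3, 57.9 and 35.1, and by that value alone it fell from growth to 168 h, by 1.06 on the log2 scale. Its transcripts with 27 and with 28 introns kept their proportions when grouped by the number of introns alone. Those with 27 introns took 71.0%, 67.1%, 68.3% and 68.7% of their FPKM, with intervals that overlapped. By the exact chain of introns, Acly changed by at least 30 points at 60 h against growth and at 168 h against growth. Changes of that size were found for 38.9% and 46.4% of all genes compared. The same number of introns thus did not mean the same introns. Acaca, the carboxylase that makes malonyl-CoA for synthesis, had 18.9 ± 3.2, 36.3 ± 3.1, 53.2 ± 6.1 and 39.2 ± 4.1 FPKM by the sum and 13.02, 20.6, 7.11 and 14.0 through the introns. No transcript held more than 9 of its 55 introns, and 36.1% of its words occur in other genes, so the order of its libraries is unsettled. Acacb, the carboxylase of mitochondria known for restraining fat oxidation in muscle, was assembled in 3, 10, 15 and 8 pieces that summed to 1.29 ± 1.2, 5.51 ± 1.5, 12.98 ± 3.3 and 7.26 ± 1.3 FPKM. Through its introns it stood at 0.41 to 0.92 FPKM with overlapping intervals. Spread over the union of its exons it had 0.037 ± 0.028, 0.27 ± 0.058, 0.49 ± 0.11 and 0.63 ± 0.094 FPKM, with growth below the other 3 libraries and all under the 1 FPKM that the rule needs.

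Fasn, the synthase that builds palmitate, had 105.5 ± 1.3, 99.5 ± 0.98, 112 ± 1.5 and 143 ± 1.2 FPKM, with all 42 introns in 1 transcript in every library. Its 4 intervals stood apart and 168 h was highest, at 0.52 ± 0.02 above 60 h on the log2 scale, which is under 2-fold. Elovl6, which lengthens palmitate, had 12.7 ± 2.2, 10.9 ± 1.6, 15.4 ± 2.9 and 5.32 ± 0.67 FPKM in pieces, and 4.70, 4.77, 3.34 and 1.85 through the introns. Both of its values were lowest at 168 h.

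Scd1 and Scd2 put the first double bond into saturated fatty acids. Scd1 had 46.3 ± 1.2, 278 ± 2.2, 266 ± 3.0 and 257 ± 10.8 FPKM, so the 3 libraries after the switch lay within 1.08-fold of each other, all far above growth. Scd2 had 129 ± 3.5, 782 ± 9.8, 686 ± 14.7 and 440.5 ± 8.3 FPKM by the sum, the highest level of the 30 genes in each library except growth, where Srebf2 was higher. The short-intron transcript, with 5 introns of at most 2853 bases, had 120 ± 2.6, 605 ± 3.8, 476 ± 4.5 and 310 ± 2.7 FPKM. The rest was in transcripts with an intron of 40739 to 65255 bases. From 60 h to 168 h Scd2 differed by -0.83 ± 0.03 by the sum and by -1.33 through the introns, and Scd1 by -0.11 ± 0.06. The Scd2 value through the introns was 782 FPKM at 60 h, which takes in the long-intron transcript. At 168 h it was 310 FPKM, that of the short-intron transcript alone, so these values are not like for like. Fads1 and Fads2, the desaturases of polyunsaturated fatty acids, lie next to each other in the genome. Fads1 had 51.9 ± 1.5, 89.3 ± 1.5, 60.9 ± 1.7 and 47.9 ± 1.1 FPKM, and Fads2 had 58.3 ± 1.6, 111 ± 1.7, 91.4 ± 2.2 and 51.6 ± 1.2. Both were highest at 60 h and lowest at 168 h, and Fads2 passed the rule between these times, at -1.09 ± 0.04, with Fads1 just short of it at -0.88 ± 0.04.

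**Figure D3:**
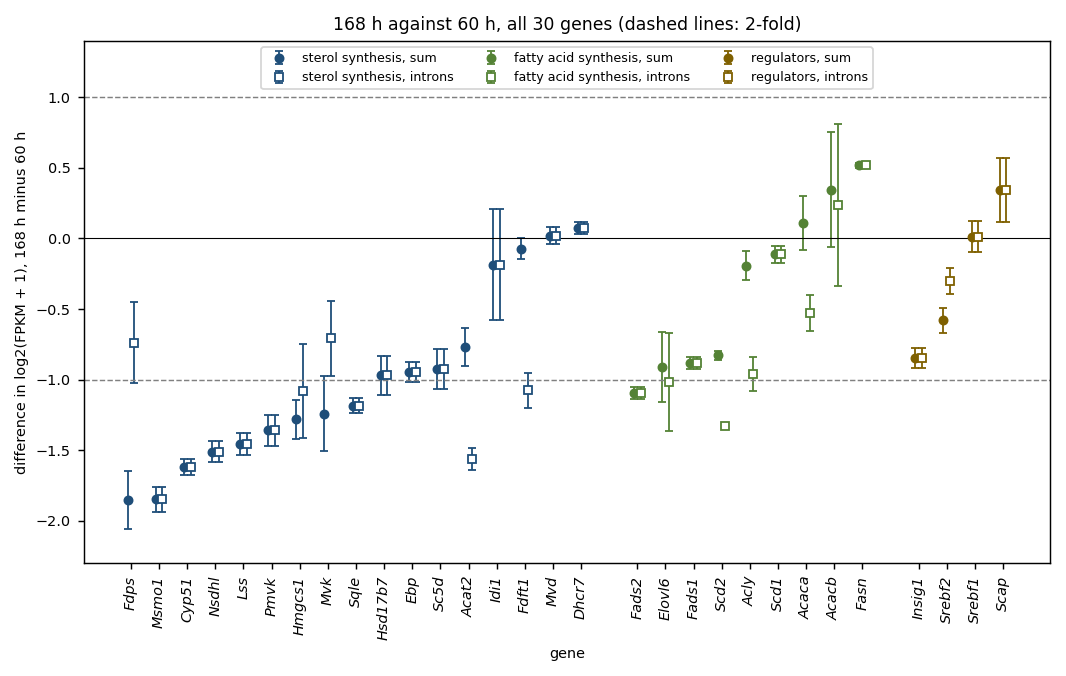
Difference in log2(FPKM + 1) between 168 h and 60 h (vertical axis, 168 h minus 60 h) for each of the 30 genes (horizontal axis), grouped as sterol synthesis, fatty acid synthesis and regulators and ordered by the sum; filled circles are sums, open squares values through the introns, bars are errors from the confidence limits and dashed lines mark 2-fold. Of the 17 sterol genes 9 lie below the lower line by the sum and none lies above the upper one, with Mvd and Dhcr7 at 0.02 and 0.07.

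Of the 4 regulators, Srebf1 alone rose from growth to 60 h, beside 11.1% of all genes. It alone also rose at 168 h against growth, beside 15.6%. None fell in these comparisons, beside 15.5% and 18.6% of all genes. The other 3 passed the rule in none of the 4 comparisons. Srebf1 had 36.5 ± 5.8 FPKM in growth, 86.5 ± 4.3 at 60 h, 81.1 ± 7.2 at 120 h and 87.2 ± 5.1 at 168 h. Growth lay below the other 3, whose intervals overlapped; the differences from growth were 1.22 ± 0.23 at 60 h and 1.24 ± 0.24 at 168 h, by both values. Srebf2, the family member best known for driving sterol genes, had 148 ± 3.1, 198 ± 6.5, 168 ± 8.7 and 132 ± 6.9 FPKM. It was highest at 60 h and lowest at 168 h by the sum, at -0.58 ± 0.09 between them, but the introns put 120 h lowest, at 119.5 ± 7.5, with the growth value of 120.3 ± 1.9 inside that interval. Scap had 34.4 ± 4.1, 22.6 ± 3.7, 24.5 ± 3.5 and 29.0 ± 0.77 FPKM, with growth highest. Insig1, itself a known target of the pathway, had 32.8 ± 1.3, 38.1 ± 1.1, 36.5 ± 2.7 and 20.7 ± 0.84 FPKM, and its difference of -0.85 ± 0.07 from 60 h to 168 h was under 2-fold but beyond the intervals.

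Srebf1 has alternative first exons with their own promoters. Transcripts from the upstream one are known to encode SREBP-1a, with the longer activation domain, and those from the downstream one SREBP-1c, the form prevalent in most tissues. In the files they are told apart by their first intron, of 13195 bases from the upstream exon, whose annotated protein has up to 1134 residues, and of 3078 bases from the downstream exon, whose annotated protein has up to 1022. The RefSeq promoters of both starts are shown because the use of these exons differed between libraries. Their transcript starts lie 23 bases (upstream) and 6 bases (downstream) from the nearest annotated GENCODE start with that first intron, in the same build. Capitals mark GC boxes and CCAAT boxes on either strand.
Srebf1 upstream, chr11:60220578-60220877, minus strand: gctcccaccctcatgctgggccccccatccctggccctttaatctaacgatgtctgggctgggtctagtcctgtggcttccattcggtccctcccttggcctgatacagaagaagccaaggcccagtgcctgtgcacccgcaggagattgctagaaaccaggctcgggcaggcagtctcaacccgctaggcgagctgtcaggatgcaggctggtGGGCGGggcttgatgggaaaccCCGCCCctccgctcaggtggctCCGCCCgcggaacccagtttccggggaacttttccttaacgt
Srebf1 downstream, chr11:60210422-60210721, minus strand: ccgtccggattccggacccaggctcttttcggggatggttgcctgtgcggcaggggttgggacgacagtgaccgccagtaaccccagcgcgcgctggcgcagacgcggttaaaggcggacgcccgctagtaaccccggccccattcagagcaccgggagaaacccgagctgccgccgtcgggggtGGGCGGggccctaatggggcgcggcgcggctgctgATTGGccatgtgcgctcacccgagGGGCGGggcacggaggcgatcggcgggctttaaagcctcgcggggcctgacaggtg

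Transcripts with the downstream first exon had 21.5 ± 2.9 FPKM in growth, 69.9 ± 2.9 at 60 h, 57.8 ± 5.1 at 120 h and 39.2 ± 3.6 at 168 h. Those with the upstream first exon had 15.0 ± 5.0, 16.6 ± 3.1, 16.5 ± 4.2 and 48.0 ± 3.6 FPKM. The upstream form had overlapping intervals in the first 3 libraries and was higher at 168 h, while the downstream form was highest at 60 h. Another first exon, farther upstream with a first intron of 15265 bases, had 6.75 ± 2.8 FPKM at 120 h only. The downstream share of Srebf1 was 59.0%, 80.8%, 71.3% and 45.0% in growth and at 60, 120 and 168 h, with intervals of 8.8, 3.0, 4.8 and 2.9 points to either side. So the level of Srebf1 was alike at 60 h and 168 h and its makeup was not. A change of at least 30 points with intervals apart was found for Srebf1 at 168 h against 120 h, as for 32.7% of the genes with more than 1 first splice donor, and at 168 h against 60 h, as for 27.9%. Changes of that size were thus common among all genes compared. The annotation has Rai1 overlapping Srebf1 on the other strand.

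**Figure D4:**
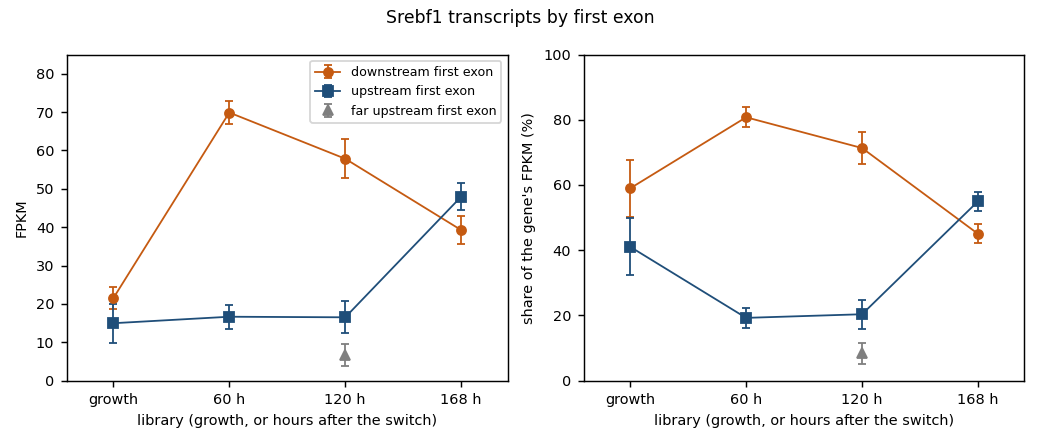
Srebf1 transcripts by first exon: FPKM (left, linear axis from 0) and percent of the gene's FPKM (right) in the 4 libraries (horizontal axes), with bars to the confidence limits; the far upstream exon was assembled only at 120 h. The downstream form stands at 69.9 FPKM at 60 h and 39.2 at 168 h, and the upstream form at 16.6 and 48.0.

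Among the members with more than 1 first splice donor, the base at which the first exon ends, none of 4 changed by at least 30 points at 60 h against growth, beside 32.2% of all genes compared. At 120 h against 60 h, 1 of 4 did (Fdps), beside 34.9%. At 168 h, 3 of 5 did against 120 h (Fdps, Scap and Srebf1), beside 32.7%, and 1 of 5 against growth (Scap), beside 36.9%. Only transcripts whose first intron has the length of an annotated first intron were counted, which left out several pieces of Fdps. The Fdps donor with 60.5% of the counted FPKM at 120 h opened a piece with 6 of the gene's 10 introns. Whether the Fdps changes follow from how it was assembled in pieces was not tested. Counted by first intron, which also takes in a different second exon joined to the same first exon, 3 of 6 members changed at 60 h against growth (Acaca, Hmgcs1 and Mvk), beside 29.4%, and 4 of 6 at 120 h against 60 h (Acaca, Fdps, Hmgcs1 and Mvk), beside 31%. At 168 h, 4 of 6 changed against 120 h (Fdps, Hmgcs1, Scap and Srebf1), beside 29.4%, and 3 of 6 against growth (Hmgcs1, Mvk and Scap), beside 33.1%. In the added comparison of 168 h with 60 h, 4 of 7 changed (Acaca, Fdps, Scap and Srebf1), beside 25.1%. Scap transcripts starting at the exon before the 19440-base intron took 63.6%, 63.0%, 47.5% and 100% of its FPKM in growth and at 60, 120 and 168 h, with intervals of 6.2, 9.4 and 7.0 points in the first 3. By whole intron chain, changes of at least 30 points were found for 6 of 12, 7 of 12, 7 of 13 and 7 of 12 members in these 4 comparisons, beside 38.9%, 42.9%, 44% and 46.4% of all genes. Mvk had only a first intron of 1024 bases in growth, and at 60 h 68.3% of it began with a 288-base intron from the same first exon.

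Among other genes of these pathways, 6 further sterol genes (Tm7sf2, Lbr, Ggps1, Insig2, Mbtps1 and Mbtps2) gave 1 that rose and 2 that fell from growth to 60 h, and 2 that fell and none that rose at 168 h against growth. Beside these and the next counts stand 11.1% of all genes that rose and 15.5% that fell at 60 h, and 15.6% and 18.6% at 168 h against growth. The 2 with the largest difference at 60 h were Ggps1, which makes geranylgeranyl diphosphate and fell by 1.15 on the log2 scale, and Lbr, a reductase of the inner nuclear membrane that fell by 1.07. Ggps1 differed by only -0.10 through the introns. Of 10 genes of sterol uptake, transport and efflux, 1 rose and 2 fell at 60 h, and 6 rose and 4 fell at 168 h against growth, of which 5 and 3 did so by both values. The 2 with the largest difference at 60 h were Npc2 and Nr1h3. Npc2, which carries cholesterol out of lysosomes, had 397 ± 6.4 FPKM in growth and 127 ± 1.8 at 60 h. Nr1h3, a sterol-sensing receptor, had 1.87 ± 1.1 FPKM at 60 h and no assembled transcript in growth. Through the introns Nr1h3 had 0.44 ± 0.39 FPKM at 60 h and did not pass the rule. Of 21 further genes of fatty acid and lipid synthesis, 19 were assembled, 6 rose and 2 fell at 60 h, and 7 rose and 3 fell at 168 h against growth. The 2 with the largest difference were Tecr and Hacd1, enzymes of the chain-lengthening cycle. Tecr had 20.1 ± 4.5 FPKM in growth and 127 ± 8.5 at 60 h. Through the introns Tecr stood at 0 in growth, so its growth sum came from pieces without a named intron of the gene. Hacd1, known for its expression in muscle, had 26.9 ± 3.1 FPKM in growth and 118 ± 6.7 at 60 h. Thrsp and Mlxipl, linked to lipogenesis in liver and fat, were not assembled in any library.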

How the data were processed

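Polyadenylated RNA of C2C12 cells was sequenced as paired ends, with 1 library at each of 4 time points, per the labels' protocols. The authors deposited assembled transcripts with exon coordinates, an RPKM for each transcript and its confidence limits, held as text in the attribute column of the files; it is called FPKM here since it counts fragments. Per the submitters' processing notes, TopHat 1.0.13 and Cufflinks 0.8.0 were used; their roles and the genome build are not stated there, and the build was not given in the sources used here. The deposited score column was not used.

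Transcripts were named by matching runs of intron, exon and intron lengths to GENCODE M21, with no coordinate carried between builds. Runs named 122886 of 137519 introns. By their length alone, 5232 more took the name of a named neighbour on either side or of a gene annotated between these neighbours. In that step 3.98% of matches are expected from unrelated lengths. Lookup on unplaced contigs was added after the files were seen, which named Hmgcs1. Single-exon transcripts were counted to a gene where at least 50% lay within its assembled exons. Where a gene has 1 transcript, the distance to the limit equals 2 square roots of its fragment count, which gave 28513976, 48228887, 24488681 and 43845262 fragments in growth and at 60, 120 and 168 h; low counts came out whole within 0.01 for 92.9% to 93.8% of values.

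Gene values were sums of FPKM, with the distances to the limits combined as the root of the summed squares, and genes without a transcript set to 0. The second value is the median over introns of the FPKM that crosses each, and its ± is that of the median intron. For a log2 difference, each library's distance was divided by its FPKM + 1. The ± is the root of the summed squares of these, put on the log2 scale. The size rule, applied to all named genes, needed a 2-fold difference in log2(FPKM + 1), separate intervals and a level of 1 FPKM or more in whichever library was higher. It was tried on simulated counts with known changes. The simulation held no genes assembled in pieces and no variation between cultures, so it does not cover these. No test was run, since each time point has 1 library. Shared words are the percent of 50-base words, sampled every 10 bases, that occur in transcripts of another gene. All 30 members are named, and of each other pathway list the 2 genes with the largest difference at 60 h against growth among those that passed the rule; 1 gene of these lists is not reported here. The members and lists were chosen with earlier results of these data known. Python 3.11.15 with numpy 2.4.6 and matplotlib 3.10.9 was used.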

Additional observations from a re-analysis of the deposited data

How the results depend on the processing

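No paired analysis was possible because each time point has 1 library, and no replicate was left out. The alternatives were fixed with earlier results known, and the comparison of 168 h with 60 h was added after the data were seen. The median distance to the confidence limit was widest at 120 h, at 14.3% of a gene's value, and a gene listed at 0 in a library is one without an assembled transcript there.

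A 4-fold rule changed the most counts. Sterol genes that rose then numbered 1 at 60 h against growth, 1 at 168 h against 120 h and 1 at 168 h against growth; those that fell numbered 1 at 120 h against 60 h and 0 at 168 h against 120 h, against growth and against 60 h. Fatty acid genes that rose numbered 0 at 120 h against 60 h and 1 at 168 h against growth, those that fell 0 at 168 h against 120 h, against growth and against 60 h, and regulator calls went from 2 to 0.

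Through the introns, sterol genes that rose numbered 1 at 120 h against 60 h and 1 at 168 h against 120 h. Fatty acid genes that rose numbered 0 at 120 h against 60 h and 2 at 168 h against growth, and those that fell 1 between 60 h and 120 h, 0 between 120 h and 168 h and 3 between 60 h and 168 h. Over the union of exons, sterol genes that rose at 168 h against 120 h numbered 1, fatty acid genes that rose 0 at 120 h against 60 h and 2 at 168 h against growth, and those that fell 0, 2 and 3 at 168 h against 120 h, growth and 60 h. With multi-exon transcripts only, sterol genes that rose at 168 h against 120 h numbered 1, and fatty acid genes that fell 1 at 60 h against growth and 2 at 168 h against 120 h, growth and 60 h. With genes assembled in both libraries only, 1 sterol gene rose at 168 h against 120 h, since Sc5d leaves the count.

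Rescaling by the median ratio moved all genes by 0.23, -0.20, 0.16, 0.20 and -0.04 on the log2 scale (growth to 60 h, 60 h to 120 h, then 168 h set against 120 h, growth and 60 h). Of all calls, 55.7% were then higher at 60 h than in growth, beside 41.7% as deposited, 64.6% at 120 h than at 60 h, beside 76.4%, and 39.4% at 168 h than at 120 h, beside 28.8%. Sterol genes that fell numbered 3 at 168 h against 120 h, beside 7.91% of all genes, and 3 against growth, beside 15%. Against growth 4 rose, beside 18.2%. Fatty acid genes that rose numbered 6 at 60 h against growth, beside 13.8%, and 0 at 120 h against 60 h, beside 9.22%. Those that fell at 168 h against growth numbered 0, beside 15%. At equal totals, 63.3% of calls were higher at 120 h than at 60 h and 46.1% at 168 h than at 60 h, beside 56.3%. Sterol genes that fell at 168 h against 120 h numbered 3, beside 8.4% of all genes. Fatty acid genes that rose at 120 h against 60 h numbered 0, beside 8.89%, and those that fell at 168 h against 60 h 2, beside 8.37%. A pseudocount of 0.1 gave 2 of the latter. Sterol genes that fell from 60 h to 168 h numbered 10 after median-ratio rescaling, beside 7.43% of all genes, and 12 at equal totals, beside 8.37%. As deposited they numbered 9, beside 6.72%.

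The sign turned for Fdps at 60 h against growth, from 1.06 to -0.32 through the introns, while the union of exons gave 1.02. It turned for Fdft1 at 168 h against 120 h, from 1.22 to -0.95 through the introns, -1.01 over the union of exons and -0.56 with multi-exon transcripts only, and at 168 h against growth, from 1.90 to -0.07 and -0.19 by the first 2 of these. Both genes were assembled in pieces; the cause was not tested. With changes of at least 50 points, first splice donor switches of members numbered 3 in place of 5, Srebf1 not among them.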
